A study of Mus musculus with 6 samples.

Results

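The primary granule of the neutrophil lineage was followed through 9 genes: myeloperoxidase (Mpo), the serine proteases neutrophil elastase (Elane), proteinase 3 (Prtn3) and cathepsin G (Ctsg), the processing protease cathepsin C (Ctsc), its inhibitor cystatin F (Cst7), the granule proteoglycan serglycin (Srgn), the protease inhibitor Serpinb1a and the membrane protein Ms4a3. They were chosen by gene name, and all 9 were found among the 16440 genes of the table. Levels were compared between normal mouse MPs (myeloid progenitors) and c-Kit+ APL progenitors, the immature cells of acute promyelocytic leukemia.

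Primary granules, also called azurophil granules, are made mainly at the promyelocyte stage, the stage at which cells in APL accumulate. Myeloperoxidase uses hydrogen peroxide to make hypochlorous acid. Elastase, proteinase 3 and cathepsin G are made as inactive precursors, are cut into their active form by cathepsin C, and are stored bound to serglycin. Cystatin F restrains cathepsin C, and Serpinb1a in the cytosol blocks granule proteases that leak out.

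Both groups came from mice of the strain labelled FVB N/J, and no age was given for the sequenced samples. The 3 MP libraries were made from normal BM (bone marrow) cells sorted as Lin-Sca-1-c-Kit+, a gate that keeps granulocyte and monocyte progenitors together with erythroid and megakaryocyte progenitors. The 3 APL libraries were made from sorted GFP-labeled c-Kit+ cells of the hMRP8-PML/RARα transgenic model, in which a myeloid promoter drives the human fusion gene. These leukemic cells had been marked with the GFP retroviral vector MigR1 and expanded by transplantation into syngeneic mice, so transgene, retroviral marking, transplantation and sorting gate all differ between the groups and cannot be told apart. The design text calls the 3 libraries of a group biological replicates without saying whether each came from its own mouse, and P-values measure only the spread between these libraries.

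Before the authors' scaling, the libraries held between 22976905 and 26932327 fragments in MPs and between 20608715 and 28382785 in APL. Kit itself, which both gates selected, stood at 10668 ± 272 scaled fragments in MPs and 5929 ± 132 in APL (SD, n = 3). Of 6 sorting markers, Kit among them, 3 were lower and 3 higher in APL. Among all genes tested, 24.4% were lower and 21.7% higher. Cd34 went from 6684 ± 1096 to 82.6 ± 8.40 and Cd48 from 1774 ± 168 to 24.7 ± 4.42. Fcgr3 rose from 780 ± 122 to 2873 ± 209 and Fcgr2b from 1212 ± 127 to 3216 ± 79.8 (SD, n = 3). Ly6a, the Sca-1 gene, went from 27.2 ± 7.09 to 43.4 ± 4.99. The groups also differed in markers of other lineages. The summed level of 12 erythroid markers was between 73671 and 90445 scaled fragments in MPs and between 340 and 531 in APL. Of these markers, 10 of the 10 that could be tested were lower in APL, beside 24.4% of all genes tested. In bulk samples fewer cells of a type and less RNA per cell cannot be told apart, and the part of these markers in the differences below was not tested.

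Expression of 8 of the 9 primary granule genes was higher in APL progenitors, none was lower, and Prtn3 did not pass the test. Ctsg rose most, 5.88-fold, followed by Serpinb1a (3.57-fold), Elane (3.44-fold), Cst7 (3.18-fold), Ms4a3 (2.96-fold), Mpo (2.32-fold), Srgn (2.16-fold) and Ctsc (1.79-fold). Across all 14595 genes tested, 21.7% were called higher, 24.4% lower and 46.1% in either direction by the same rule, an adjusted P under 0.05 in limma and a fold change over 1.5. The median log2 fold change was 1.57 over the 9 genes and -0.10 over all genes tested. All 9 passed the filter on low values. The APL range lay wholly above the MP range for the same 8 genes, against 31.1% of all genes tested (70.9% without overlap in either direction). Fold changes here are on the scale of log2(scaled fragments + 1), where scaled fragments are the estimated fragments of a gene after scaling by a factor of the library.

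**Figure D1:**
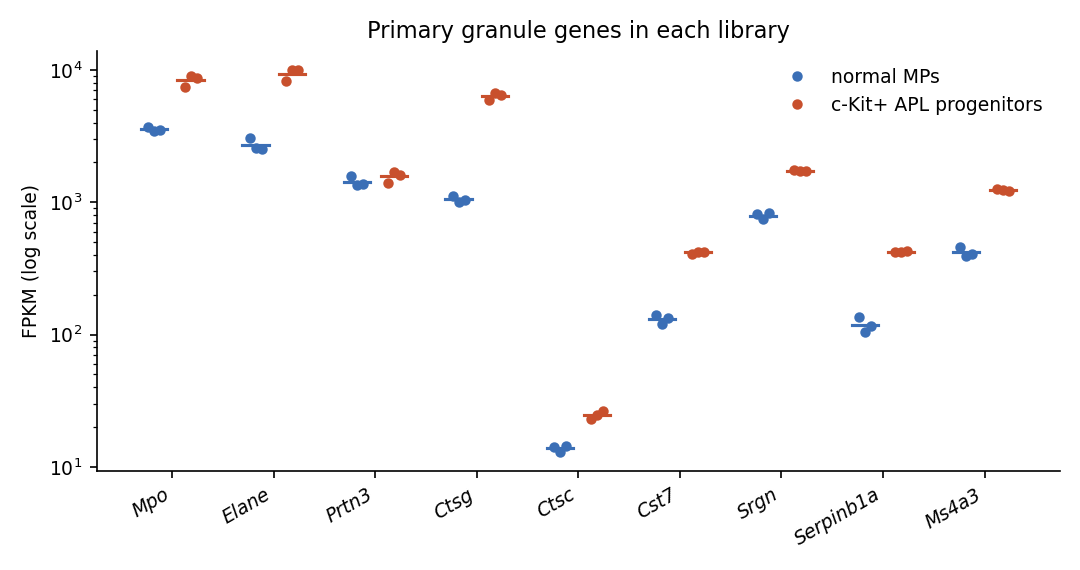
FPKM (fragments normalized to transcript length and library, log axis) of the 9 genes in each library. Each point is a library and each bar the mean of 3 libraries, blue for normal MPs and red for c-Kit+ APL progenitors. The groups are apart for 8 genes and overlap for Prtn3, and Elane and Ctsg join Mpo at the top in APL.

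**Figure D2:**
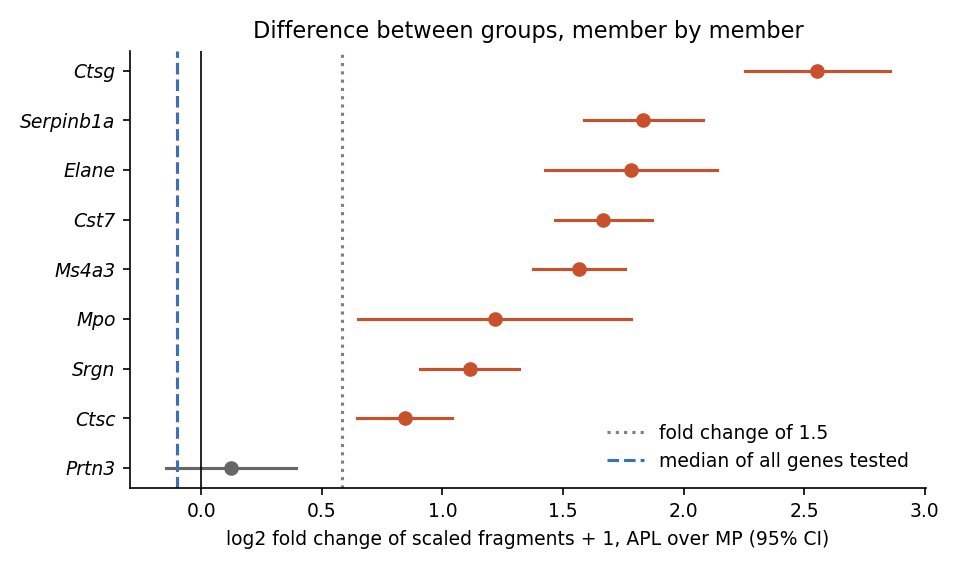
Log2 fold change of each gene, APL over MP, with its 95% confidence interval from limma (3 libraries per group). The intervals of 8 genes lie above 0, that of Prtn3 spans 0, and the dashed line marks the median of all genes tested at -0.10.

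The granule contents were among the most abundant transcripts of both groups. Mpo (gene ID 17523, chr11:87793784-87804412, GRCm38) had 230111, 211340 and 225149 scaled fragments in the 3 MP libraries, in the order of their numbers, against 459396, 558727 and 535397 in the 3 APL libraries. The lowest APL library was above the highest MP library. The means were 222200 ± 9727 in MPs and 517840 ± 51941 in APL (SD, n = 3), a log2 fold change of 1.22 ± 0.25 (SE, limma adjusted P = 0.0022). Counted by scaled fragments, Mpo ranked 2 among all genes in every library of either group except APL library 2, where it ranked 1. Chi3l3, described below, reached 942365 in APL but was listed at 0 in APL library 2. That 0 may not be a measured absence, so the rank of 1 may rest on it. The call for Mpo was lost after quantile normalization, with a log2 fold change of 0.24 (limma adjusted P = 0.34), and in a test against a fold change of 1.5 (limma adjusted P = 0.052).

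Elane (gene ID 50701, chr10:79886312-79888216) encodes the elastase whose mutations cause congenital neutropenia. Its scaled fragments were 53777, 45107 and 47451 in MPs and 147991, 177997 and 177878 in APL. Every APL library was above every MP library, and the log2 fold change was 1.78 ± 0.16 (SE, limma adjusted P = 1.2e-05). By FPKM, which allows levels of different genes to be compared, Elane moved from ranks 12 to 48 among all genes in MPs to ranks 4 to 5 in APL.

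Ctsg (gene ID 13035, chr14:56099881-56102574) encodes a protease with chymotrypsin-like specificity. It had 26572, 23017 and 25764 scaled fragments in MPs and 134617, 151226 and 156979 in APL. This was the largest difference of the 9 genes, with a log2 fold change of 2.55 ± 0.13 (SE, limma adjusted P = 4.1e-07). Of all genes tested, 4.81% had a larger increase. Its FPKM rank moved from 82 to 96 in MPs to 6 to 8 in APL.

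Prtn3 (gene ID 19152, chr10:79879667-79883172) encodes the protease closest to elastase in this set, and it was the exception. Its scaled fragments were 31878, 26997 and 28844 in MPs and 28358, 34608 and 32660 in APL. The groups overlapped: APL library 1 was below MP libraries 1 and 3. The log2 fold change was 0.12 ± 0.12 (SE, limma adjusted P = 0.38), and its 95% confidence interval ran from a fold change of 0.904 to one of 1.31. The sign was not fixed: the log2 fold change was -0.00793 with libraries scaled to the same total and -0.00829 with voom weights. An exact two-sided permutation test gave p = 0.3, where the smallest p that 3 libraries against 3 can give is 0.1. The interval ended below the fold changes of the 8 other genes, but it does not show that the groups were equal.

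The exception was also seen within each library, where scaling between libraries cancels. Elane FPKM was 1.94, 1.89 and 1.86 times Prtn3 FPKM in the MP libraries, against 5.91, 5.90 and 6.15 times in those of APL. The mean ratio thus went from 1.89 ± 0.0402 to 5.99 ± 0.144 (SD, n = 3), a 3.16-fold difference with no overlap (exact two-sided permutation p = 0.1, Benjamini-Hochberg adjusted over 4 ratios 0.133). Of the summed FPKM of Mpo, Elane, Ctsg and Prtn3, Prtn3 held 16.2% to 16.7% in MPs and 6.05% to 6.19% in APL. Ctsg moved the other way, from 11.8% to 12.4% in MPs to 24.3% to 25.7% in APL. Mpo held 39.1% to 41.4% in MPs and 32.4% to 32.9% in APL, and Elane 30.1% to 32.4% and 35.9% to 37.2%. The ratio of Mpo to the summed proteases was 0.683 ± 0.0364 in MPs and 0.483 ± 0.00574 in APL (SD, n = 3, exact permutation p = 0.1, adjusted 0.133).

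**Figure D3:**
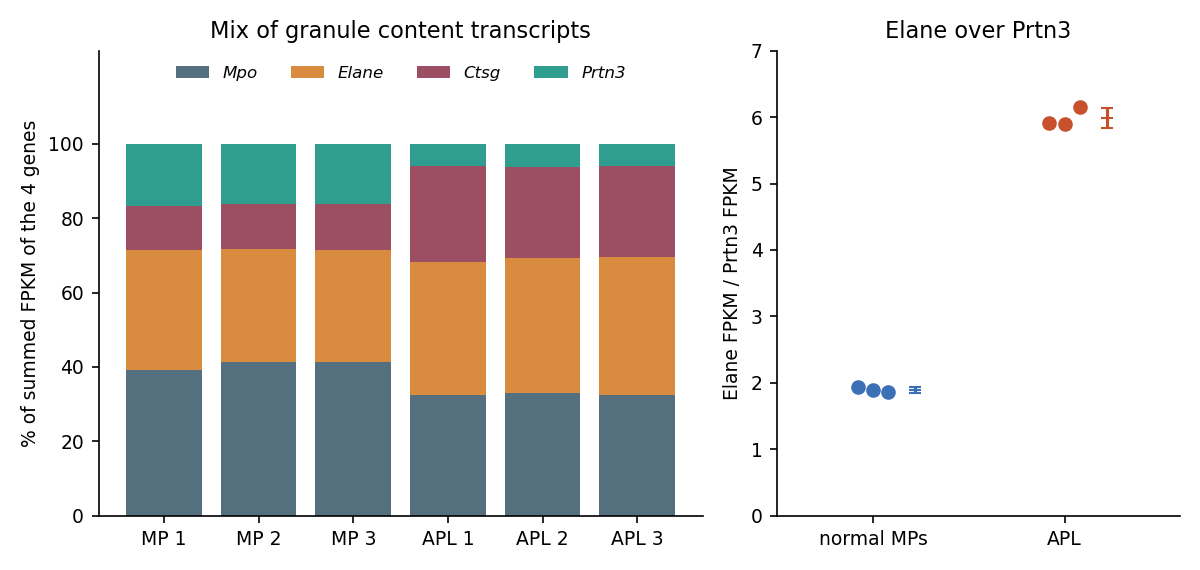
Left, share of Mpo, Elane, Ctsg and Prtn3 in their summed FPKM, in percent, for each library. Right, Elane FPKM over Prtn3 FPKM, where points are libraries and bars the mean ± SD of 3 libraries: the ratio stands near 1.89 in normal MPs and near 5.99 in APL, and the libraries of a group lie close together.

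Elane and Prtn3 are neighbours on the same strand, with 3139 bases between the end of Prtn3 and the start of Elane. The 250 bases before the start of transcription of both, and of Mpo and Ctsg, are shown because 3 of these 4 genes rose and the fourth did not pass the test. Sequences are from RefSeq on GRCm38.p6, written 5′ to 3′ on the strand of the gene, and capitals mark matches on either strand to the PU.1 letters AGGAAGT, the MYB letters (TAACGG or CAACGG, and also TAACTG or CAACTG), the RUNX letters TGTGGT or TGCGGT, or the C/EBP letters TTNCNNAA. The marked matches do not overlap each other. Prtn3 lies on the plus strand at chr10:79879417-79879666, Elane on the plus strand at chr10:79886062-79886311, Mpo on the plus strand at chr11:87793534-87793783 and Ctsg on the minus strand at chr14:56102575-56102824.
Prtn3: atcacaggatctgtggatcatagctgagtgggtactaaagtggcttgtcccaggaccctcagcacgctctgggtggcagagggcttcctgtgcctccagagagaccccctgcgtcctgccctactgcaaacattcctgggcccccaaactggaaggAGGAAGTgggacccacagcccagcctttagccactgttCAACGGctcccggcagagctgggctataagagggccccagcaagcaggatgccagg
Elane: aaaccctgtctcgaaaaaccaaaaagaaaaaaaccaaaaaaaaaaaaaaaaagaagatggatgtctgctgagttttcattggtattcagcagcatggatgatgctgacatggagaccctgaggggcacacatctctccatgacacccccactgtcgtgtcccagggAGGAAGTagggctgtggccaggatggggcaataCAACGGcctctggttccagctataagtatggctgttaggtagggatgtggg
Mpo: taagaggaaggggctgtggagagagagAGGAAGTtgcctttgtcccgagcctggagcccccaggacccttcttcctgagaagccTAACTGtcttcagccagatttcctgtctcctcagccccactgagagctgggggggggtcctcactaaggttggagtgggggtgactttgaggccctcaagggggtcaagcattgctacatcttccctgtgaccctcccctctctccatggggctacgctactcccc
Ctsg: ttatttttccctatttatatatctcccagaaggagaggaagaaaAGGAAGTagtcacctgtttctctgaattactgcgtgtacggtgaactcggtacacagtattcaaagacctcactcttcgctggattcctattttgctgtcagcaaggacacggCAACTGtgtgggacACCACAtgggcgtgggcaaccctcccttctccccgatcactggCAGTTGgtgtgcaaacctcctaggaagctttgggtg

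In Prtn3 the PU.1 match began 94 bases and the MYB match 56 bases before the start, and in Elane they began at 84 and 51 bases, with the same letters and in the same order. The Mpo window held a PU.1 match from base 223 and a MYB match from base 166 before the start. Ctsg had a PU.1 match from base 206, a RUNX match from base 79 and MYB matches from bases 93 and 36. None of the 4 windows held the C/EBP letters. Windows were found for 8 of the 9 genes, and Srgn had 2 of them. The PU.1 letters were in the windows of 6 of the 8 genes and in 7.69% of all 32851 windows of the same length, and the MYB letters were in 5 of the 8 and in 23.7% of all windows. The RUNX letters were in 3 of the 8 (18.6% of all windows), the C/EBP letters in 3 of the 8 (36.8%), and the letters AGGTCA, an element of retinoic acid receptor binding sites, in 0 of the 8 (14.0%). These matches are a description of letters and not of binding, and Serpinb1a was not searched.

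The genes that process and pack the proteases rose too, and their 95% confidence intervals ended below those of Elane and Ctsg. Ctsc (gene ID 13032, chr7:88278093-88310875) had 949, 876 and 949 scaled fragments in MPs and 1514, 1654 and 1820 in APL. The groups did not overlap, and the log2 fold change was 0.84 ± 0.09 (SE, limma adjusted P = 3e-05). At 13.9 ± 0.682 FPKM in MPs and 24.8 ± 1.82 FPKM in APL (SD, n = 3), Ctsc was the lowest of the 9 genes in both groups.

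Srgn (gene ID 19073, chr10:62494428-62507755) had 15358, 14029 and 15773 scaled fragments in MPs and 32601, 31783 and 33235 in APL. The log2 fold change came to 1.11 ± 0.09 (SE, limma adjusted P = 6.7e-06). Serglycin transcripts thus stood above those of Prtn3 in APL, at 1732 ± 21.0 against 1567 ± 157 FPKM, and below them in MPs, at 792 ± 43.5 against 1434 ± 128 FPKM (SD, n = 3). The FPKM ranges of the 2 genes did not overlap in either group.

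Both inhibitors rose more than 3-fold. Serpinb1a (gene ID 66222, chr13:32842092-32851185) had 7783, 5885 and 6508 scaled fragments in MPs and 23327, 23381 and 24774 in APL, with a log2 fold change of 1.83 ± 0.11 (SE, limma adjusted P = 9.4e-07). Cst7 (gene ID 13011, chr2:150570415-150578944) had 2901, 2395 and 2803 in MPs and 8190, 8480 and 9005 in APL, with a log2 fold change of 1.67 ± 0.09 (SE, limma adjusted P = 4.6e-07). The APL libraries were above the MP libraries for both genes. Serpinb1a shares runs of up to 81 identical bases with the transcript of its near copy Serpinb1b, which had a mean of only 1.55 scaled fragments in MPs and 3.88 in APL. For Elane and Prtn3 the longest identical run was 17 bases and for Mpo and its relative Epx 26 bases, in transcripts of an earlier mouse build.

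Inhibitors were also set against their targets. The summed FPKM of Elane, Prtn3 and Ctsg was 44.0 ± 2.70 times that of Serpinb1a in MPs and 41.0 ± 3.60 times in APL (SD, n = 3), and the groups overlapped (exact two-sided permutation p = 0.5, adjusted over the 4 ratios 0.5). The ratio of Ctsc to Cst7 was 0.106 ± 0.00465 in MPs and 0.0594 ± 0.00348 in APL (SD, n = 3), with no overlap (exact permutation p = 0.1, adjusted 0.133). The Ctsc to Cst7 values differ 1.78-fold. With 3 libraries against 3 the smallest exact p is 0.1, so no ratio could pass a threshold of 0.05.

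Ms4a3 (gene ID 170813, chr19:11629497-11640834) encodes a membrane protein that marks granulocyte and monocyte progenitors. It had 8532, 7304 and 7885 scaled fragments in MPs and 23572, 23189 and 23358 in APL, a log2 fold change of 1.57 ± 0.08 (SE, limma adjusted P = 5.3e-07). Its 3 APL libraries were the closest of any group of the 9 genes, with an SD of 0.0118 on the log2 scale. The widest was Serpinb1a in MPs, with an SD of 0.204.

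Together the 9 genes held 1.71%, 1.54% and 1.49% of all scaled fragments in the MP libraries, against 3.54%, 4.11% and 3.86% in those of APL. The total behind the 4.11% of APL library 2 includes Chi3l3 at its listed 0. In MPs the order by FPKM was Mpo, Elane, Prtn3, Ctsg, Srgn, Ms4a3, Cst7, Serpinb1a and Ctsc, and among neighbours in this order only the ranges of Cst7 and Serpinb1a overlapped. In APL the order was Elane, Mpo, Ctsg, Srgn, Prtn3, Ms4a3, Serpinb1a, Cst7 and Ctsc, with overlap between Elane and Mpo and between Serpinb1a and Cst7. Elane was above Mpo in 3 of 3 APL libraries (mean 9386 ± 1008 against 8354 ± 825 FPKM), and below it in 3 of 3 MP libraries (mean 2719 ± 297 against 3549 ± 129 FPKM, SD, n = 3).

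The loci of Mpo and of Elane with Prtn3 belong to small clusters of related genes. Next to Elane, 2636 bases away, lies Cfd, the serine protease complement factor D, which had 5.20 ± 3.59 scaled fragments in MPs and 34.0 ± 5.28 in APL (SD, n = 3), a log2 fold change of 2.66 (limma adjusted P = 0.00062). Prss57, which encodes neutrophil serine protease 4, lies on the other side, before Prtn3, and had 2380 ± 203 in MPs and 3455 ± 215 in APL. With a log2 fold change of 0.54 it fell short of the fold change of 1.5 (limma adjusted P = 0.00043), and it shares its locus in the table with Fstl3. Within 100000 bases of Elane and Prtn3, 15 other genes were tested, of which 3 were higher and 1 lower in APL. The share of higher genes was near the 21.7% of all genes tested, of which 24.4% were lower.

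Mpo is flanked by Lpo, the related lactoperoxidase, 2015 bases away, and by Bzrap1 on the other side, 7855 bases away. Lpo had 21.6 ± 10.1 scaled fragments in MPs and 132 ± 8.72 in APL, a log2 fold change of 2.68 (limma adjusted P = 0.00018). Bzrap1 had 3486 ± 715 in MPs and 32349 ± 1088 in APL, a log2 fold change of 3.23 (limma adjusted P = 1.6e-07). Epx, the eosinophil peroxidase in the same cluster, went from 777 ± 319 to 131 ± 26.7 (SD, n = 3), a log2 fold change of -2.51 (limma adjusted P = 3.4e-05). Of the 7 genes around Mpo, 4 were higher and 2 lower, beside 21.7% higher and 24.4% lower over all genes.

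**Figure D4:**
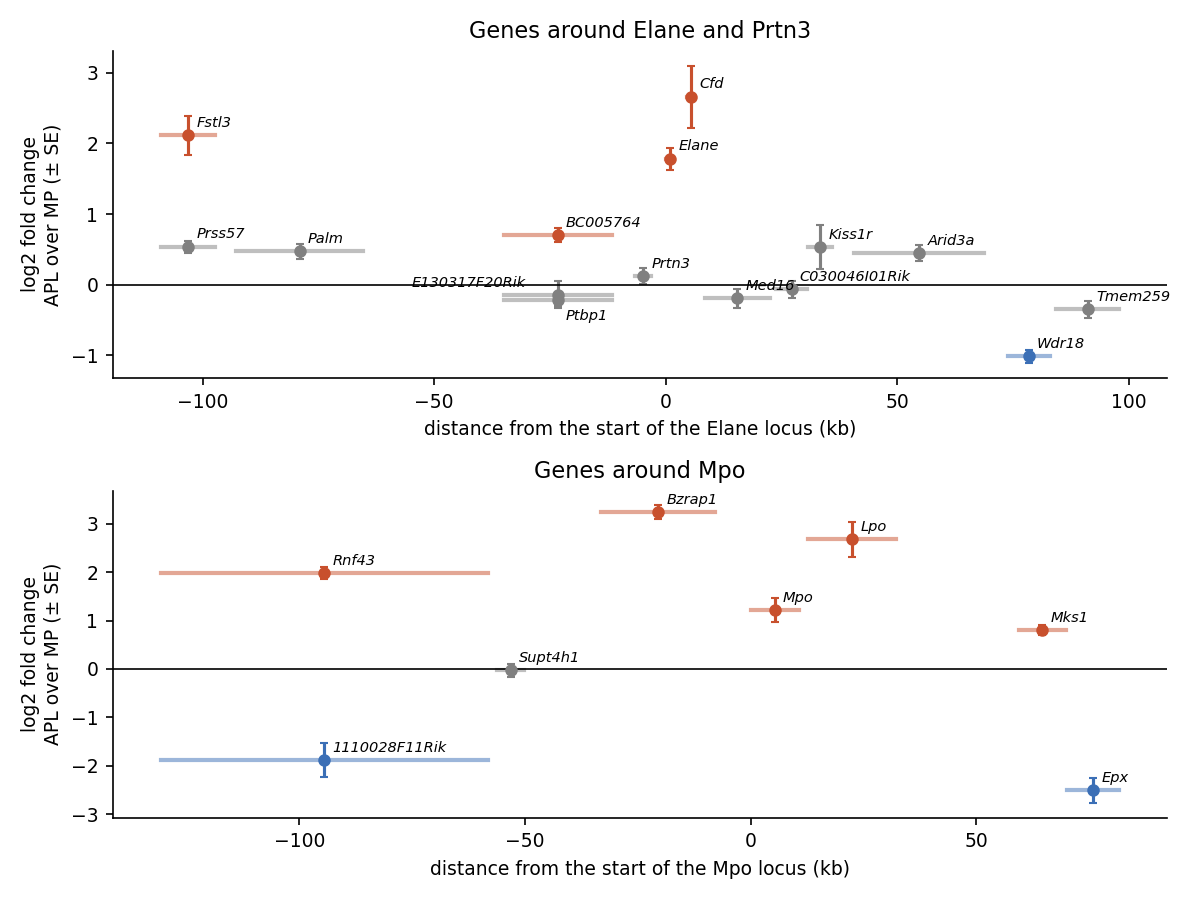
Log2 fold change (APL over MP, ± standard error) of genes near Elane and Prtn3 (above) and near Mpo (below) against distance in kb from the start of the Elane or Mpo locus. Horizontal bars span each locus, red marks genes called higher in APL, blue lower and grey not called, and 2 genes with a mean under 20 scaled fragments in both groups are left out. Prtn3 lies near 0 between Elane and BC005764, and Epx lies below 0 in the cluster that holds Mpo and Lpo.

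Around the other members, Mcpt8, a basophil protease gene 14683 bases from Ctsg, had 313 ± 53.7 scaled fragments in MPs and 680 ± 67.0 in APL (SD, n = 3), a log2 fold change of 1.13 (limma adjusted P = 0.00012). In the Ms4a cluster, Ms4a3 moved against its relatives Ms4a2, a subunit of the IgE receptor, with a log2 fold change of -1.85 (limma adjusted P = 4e-05), and Ms4a6b, with one of -1.54 (limma adjusted P = 3.8e-05). Another relative there, Ms4a6d, was not called, with 17.6 ± 7.51 scaled fragments in MPs and 17.9 ± 3.29 in APL (SD, n = 3). Over all 9 genes, 40 neighbours were tested, of which 14 were higher, 10 lower and 16 not called, beside 21.7% higher and 24.4% lower over all genes.

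Genes of the same granule that were not chosen as members showed a mixed picture. Of 23 lysosomal enzymes and membrane proteins of azurophil granules tested, 14 were higher, 3 lower and 6 not called, with a median log2 fold change of 0.81. The shares over all genes tested were 21.7% higher and 24.4% lower. The largest increases were in Cd68, a lysosomal membrane protein (147 ± 27.1 to 653 ± 17.4 scaled fragments), Arsa, arylsulfatase A (725 ± 133 to 3161 ± 211), and Gla, alpha-galactosidase A (373 ± 15.0 to 1277 ± 78.5; SD, n = 3). Gaa, acid alpha-glucosidase, Ctsl, cathepsin L, and Cd63, a granule membrane protein, were lower, with log2 fold changes of -1.06, -0.82 and -0.64.

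Of 14 other inhibitors of granule proteases, 7 were higher, 4 lower and 3 not called (median 1.19). Among all genes tested, 21.7% were higher and 24.4% lower. Slpi, the secreted inhibitor of elastase and cathepsin G, rose 3.94-fold from 1553 ± 251 to 6080 ± 483 scaled fragments (SD, n = 3, limma adjusted P = 1e-06). Stfa3 and Stfa2, which encode cysteine protease inhibitors of the stefin family, were higher from MP means of only 1.24 and 0.601. Their APL means were 24.3 and 5.32. Serpina1a and Serpina1b were also called higher at low values, with means of 0.325 and 0.317 in MPs and 3.79 and 3.93 in APL. Cst3 rose from 2952 ± 516 to 7061 ± 394 and Cstb from 400 ± 92.9 to 963 ± 34.5 (SD, n = 3). Serpinb6b was lower, from 170 ± 28.6 to 2.48 ± 0.122, as were Serpina3g (log2 fold change -1.04) and Serpinb9, the granzyme B inhibitor (-0.88).

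Other proteases, listed as activated by cathepsin C, were called in both directions. Of 11 in the table, 6 could be tested, 1 was higher (Mcpt8) and 3 were lower (median -0.76), beside 21.7% higher and 24.4% lower over all genes. Gzmb, granzyme B, went from 136 ± 47.9 scaled fragments in MPs to 1.11 ± 1.25 in APL, and Cma1, mast cell chymase, from 31.4 ± 12.0 to 0.578 ± 1.00 (SD, n = 3). The tryptase gene Tpsb2 was at 0 in all APL libraries, from a mean of only 3.41 ± 1.96 in MPs. Whether cathepsin C activates the tryptases of this list was not checked. Beside this, the 9 mast cell and basophil markers had a summed level of 6260 to 7733 in MPs and 1508 to 1828 in APL, with 7 lower and 1 higher. Mcpt8, Cma1 and Tpsb2 belong to both lists, so the calls of these lists are partly the same. The part of the markers in the result was not tested.

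Of 16 genes for sorting and secretion of granules, 4 were higher, 2 lower and 10 not called (median 0.20), a share of higher genes near the 21.7% of all genes. Lyst, the gene of Chediak-Higashi syndrome with its giant granules, was higher with a log2 fold change of 1.48 (2220 ± 598 to 6209 ± 1783 scaled fragments), followed by Rab27a, a GTPase of granule release (1.19), and Ap3s1, an adaptor subunit for protein sorting (1.10). Rab27b went from 217 ± 33.7 to 1.69 ± 1.46 (SD, n = 3), and Unc13d, which primes granules for fusion, had a log2 fold change of -0.90.

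Of 15 enzymes that build the glycosaminoglycan chains of serglycin, 3 were higher, 4 lower and 8 not called (median 0.09). These shares were near those of all genes tested, 21.7% higher and 24.4% lower. The chondroitin enzymes Chst12, Chsy1 and Chst13 were higher, with log2 fold changes of 1.29, 1.21 and 0.77. The 3 largest decreases were in Chsy3, which was at 0 in all APL libraries from a mean of 7.68 ± 4.53, and in Chst15 (-2.75) and Csgalnact1 (-1.51). Chst15 adds the second sulfate that marks chondroitin sulfate E.

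Myeloperoxidase is folded in the endoplasmic reticulum with calreticulin before its heme is inserted. Of 6 peroxidase relatives and maturation genes, 3 were higher, 1 lower and 2 not called (median 0.58). Among all genes tested, 21.7% were higher and 24.4% lower. Calr, calreticulin, had 46774 ± 1410 scaled fragments in MPs and 125230 ± 10425 in APL (SD, n = 3), a log2 fold change of 1.42 (limma adjusted P = 2.1e-05), and Pdia3, an oxidoreductase that works with it, one of 0.95 (limma adjusted P = 2.1e-05). Lpo and Epx, described with the Mpo locus, were the other 2 genes called.

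Transcription factors known at primary granule promoters also differed. Of 10 tested, 6 were higher, 2 lower and 2 not called (median 1.06), beside 21.7% higher and 24.4% lower over all genes. Cebpd, Ets1 and Cebpb showed the largest increases, with log2 fold changes of 2.78, 2.53 and 1.96. Myb, which encodes the factor whose letters were searched above, was lower at 12297 ± 409 scaled fragments in APL against 22386 ± 639 in MPs (SD, n = 3, log2 fold change -0.86), and Rara had a log2 fold change of -0.67. PU.1 itself was not analysed here.

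Genes of later granule classes were also called in both directions. Of 13 genes of specific and gelatinase granules, made at the stages after the promyelocyte, 3 were higher, 5 lower and 5 not called (median -0.27). Over all genes tested, 21.7% were higher, a share near that of this list, and 24.4% lower. Cd177, Olfm4 and Cybb were higher, with log2 fold changes of 3.35, 2.68 and 0.79, while Fcnb, Ngp and Ltf, which encodes lactoferrin, were lower, with -3.06, -1.46 and -1.42. Chi3l3, named after its values were seen, ran from 9649 to 16670 scaled fragments in MPs and from 0 to 942365 in APL, and a listed 0 beside such values may not be a measured absence. Of 10 neutrophil maturation markers 7 were higher and 3 not called (median 1.05), led by Trem1 (3.13), Il1b (2.20) and S100a8 (2.17), and their summed level was 48444 to 81644 in MPs and 207397 to 214059 in APL.

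**Figure D5:**
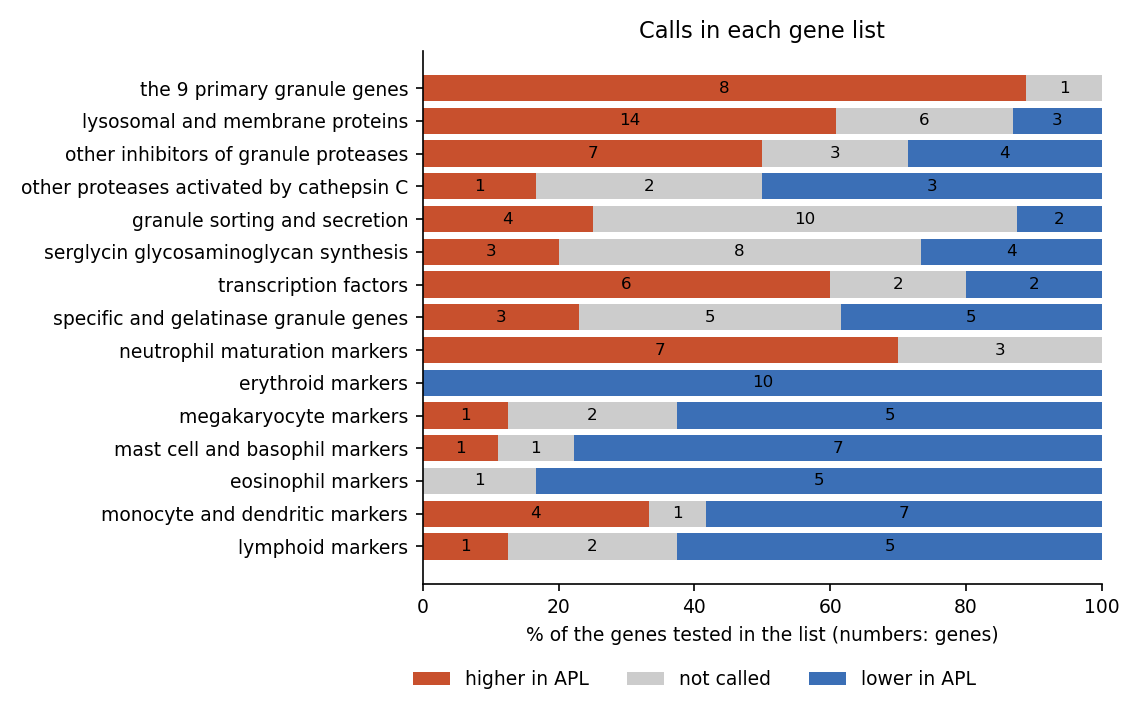
Share of the tested genes of each list that were higher in APL (red), not called (grey) or lower (blue), in percent, with the number of genes written in each bar. The 9 primary granule genes hold 8 higher and 1 not called, other proteases listed as activated by cathepsin C 1 higher and 3 lower, and erythroid markers 10 lower. The shares of all genes tested are 21.7% higher and 24.4% lower.

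Markers of other cell types that the gates could hold moved with the groups. For comparison, 21.7% of all genes tested were higher and 24.4% lower. Megakaryocyte markers summed to 4001 to 5016 scaled fragments in MPs and 2453 to 2864 in APL, with 5 of 8 lower and 1 higher. The higher one was Fli1, a transcription factor with 1076 to 1203 in MPs and 2227 to 2553 in APL, and the other 7 summed to 2926 to 3916 in MPs and 226 to 323 in APL. Eosinophil markers summed to 3451 to 6452 and 673 to 1080, with 5 of 6 lower, and the 10 lymphoid markers to 402 to 528 and 129 to 173, with 5 of the 8 tested lower and 1 higher. The higher lymphoid marker was Vpreb1, from 9.96 ± 2.75 to 109 ± 16.2, which made up most of the APL sum. Cd79b, which made up most of the MP sum, went from 363 ± 45.8 to 6.83 ± 3.04 (SD, n = 3). Monocyte and dendritic markers split: 7 of 12 were lower, among them Flt3, Irf8 and Ly86 (log2 fold changes of -5.83, -4.91 and -4.74), and 4 were higher, led by Ly6c2, F13a1 and Emr1 (3.61, 2.79 and 2.79), so that their sum went from 21858 to 26539 up to 178040 to 191116. The part of these markers in the differences of the 9 genes was not tested.

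Across the 6 libraries, the genes whose profile was nearest to the mean of Mpo, Elane, Prtn3 and Ctsg were Il21r, Tbc1d2, P4hb, Adam15 and Atp6v1b2, out of 10301 genes compared with a mean of at least 100 scaled fragments. Likeness was the root mean square difference of centred log2 profiles, which was 0.0374 for Il21r and 0.0563 for Atp6v1b2. P4hb, a protein disulfide isomerase, had 21881 scaled fragments in MPs and 59679 in APL, and Atp6v1b2, a subunit of the proton pump of lysosomes and granules, 3729 and 10474. By the same measure the members themselves lay between 0.105 for Mpo and 0.648 for Prtn3.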

How the data were processed

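RNA-seq was measured in 6 libraries, 3 of normal MPs and 3 of c-Kit+ APL progenitors. The authors deposited 1 table of 16440 genes with FPKM values, normalized to transcript length and library, and estimated fragments. The deposited fragments are a signal already scaled by the authors by a factor of each library: 81.5% to 87.1% of nonzero values were whole multiples (tolerance 0.01) of the value of 1 fragment, which lay between 0.867 and 1.23, so no count model was used. The submitters' processing notes name CASAVA 1.8, TopHat2 2.0.6 and mm10, whereas the methods of the study name STAR, mm9, HTSeq-count and DESeq2. Which tool made the table is not given in the sources used here. Of its genes 16361 were matched to RefSeq on GRCm38.p6, and 16295 of these overlapped the RefSeq gene. Loci in the table start from 0 and are written here from 1.

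The 14595 genes that reached a scaled value of 1 in 3 or more libraries were tested with limma 3.58.1 in R 4.3.3 (lmFit and trended eBayes) on values transformed as log2(scaled fragments + 1), with the 2 groups as the only term. P-values were adjusted by Benjamini-Hochberg over all genes tested, and genes were called at an adjusted P under 0.05 and a fold change over 1.5. The fit was tested on simulated data. Ratios between members were compared by an exact two-sided permutation test over the 6 libraries (Python 3.11.15). The replicates of a group differed by 3.46 to 15.4 times counting noise, so none was taken for a repeat deposit. Both groups are numbered from 1 to 3, and these numbers were not used in the test.

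The 9 members, the gene lists and the alternatives were chosen with earlier results of these data known. Named are all members, up to 3 largest increases and decreases among the called genes of each list, and the 5 genes of nearest profile. Serpina1a, Serpina1b, Cst3 and Cstb were added after their values were seen. Of the genes within 100000 bases of a member that are related to it or next to it, only some are named. Alternatives covered the filter, the pseudocount, normalization, FPKM, voom weights, the fold change threshold, the library number as a block and each library left out. The library totals limit precision for low genes only, since each member had at least 876 scaled fragments in every library. Promoter windows, the 250 bases before a start in RefSeq, were searched on both strands.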

Additional observations from a re-analysis of the deposited data

How the results depend on the processing

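The counts were recomputed under 19 alternatives, the fold change of each member under 17 and the ratios under 7. The number of members higher in APL was 7 or 8 in all of them and the number lower 0. It was 7 after quantile normalization, where Mpo was not called (log2 fold change 0.24), in the test against a fold change of 1.5, where Mpo was not called either, and at a fold change over 2, which left out Ctsc. Quantile normalization gives equal values to equal ranks, and Mpo ranked 1 or 2 by scaled fragments in every library. Scaling to the same total and voom weights moved the median of all genes by -0.127 and -0.133 on the log2 scale, lower calls then made up 60.8% and 60.9% of calls against 52.9% before, and the log2 fold change of Prtn3 turned from 0.12 to -0.00793 and -0.00829. With FPKM, 1980 genes were called lower against 3558, of 11131 instead of 14595 tested. With 1 library left out, 8 members were higher each time, genes called lower were between 2913 and 3507 and genes called higher between 2734 and 3256. The log2 difference of Elane over Prtn3 then stayed between 1.64 and 1.68, and the log2 fold change of Prtn3 between 0.06 and 0.20. Deviations of libraries with the same number correlated at 0.214, 0.0416 and 0.209 over 10310 genes. Those of libraries with different numbers ran from -0.345 to 0.200. These values do not settle whether the numbers are pairs, and the numbers were not taken as pairs. A replicate block on these numbers gave 6753 called genes against 6725, 6673 of them in both, and 8 members were again higher. With 3 libraries against 3, exact permutation tests cannot go below p = 0.1.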
